A study of Mus musculus with 26 samples.

Results

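The T cell receptor alpha joining segments are short coding stretches that lie upstream of Trac, the gene of the constant region of the T cell receptor alpha chain. All genes of the deposited tables whose name begins with Traj, together with Trac, were taken as the set. They were 52 of the 25814 genes of the tables, 51 joining segments and 1 constant gene. All 52 were annotated on mouse chromosome 14 (GRCm38), on the plus strand. Their numbers fall in the direction of transcription. Traj59 ends 64.3 kb before the start of Trac, and Traj2 ends 2.62 kb before it. Trac itself (ENSMUSG00000076928) spans chr14:54220521-54224206. A further 9 joining segments that GENCODE types as pseudogenes were not analysed here.

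Messenger RNA was sequenced from T cells sorted by flow cytometry from Peyer's patches, the lymphoid follicles of the small intestinal wall, of C57Bl/6 mice. CD4+ T cells came from mice on a conventional diet (n = 6 libraries) or on an elemental diet (n = 6), in which free amino acids commonly take the place of protein. T cells sorted as CD44+ (n = 7) or as CD44- (n = 7) all came from conventionally fed mice. CD44 is an adhesion receptor that activated and memory T cells carry at high levels. The libraries of both CD4+ groups were made from 22 ng of total RNA, and those of both CD44 groups from 1 ng with a low-input kit. Kit and cell population cannot be told apart between these pairs, so each comparison stayed within its pair. The labels name no age and leave unsaid if the cells of the CD44 sorts were also selected for CD4 and if each replicate was its own animal. A p-value here thus sets a difference between groups only against the spread between these libraries, which may partly be technical.

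A working alpha chain gene is made in the thymus by joining 1 variable segment to 1 joining segment. The RNA of the joined gene is then spliced from the joining segment to Trac. Because the joining segments are many, a cell can delete a first join and make another one that lies nearer to Trac, so rearrangement tends to proceed from the distal toward the proximal end. The joining segment encodes the last part of the third complementarity-determining loop, which touches the peptide, and then a conserved Phe-Gly-X-Gly or Trp-Gly-X-Gly stretch that holds the fold of the domain. Conventional T cells use many segments, while invariant natural killer T cells use Traj18 and mucosal-associated invariant T cells use Traj33.

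The 4 segments with most reads in the CD4+ libraries (Traj23, Traj31, Traj37 and Traj27) and the 4 on which the comparisons below turn (Traj15, Traj18, Traj33 and Traj50) are printed here 5′ to 3′, as GENCODE M21 gives them for GRCm38. Capitals mark the stretch that encodes Phe-Gly-X-Gly or Trp-Gly-X-Gly, found as TTTGGNNNNGG, TTCGGNNNNGG or TGGGGNNNNGG in the frame in which the last base of the segment begins a codon.
Traj23, chr14:54196081-54196140, plus strand: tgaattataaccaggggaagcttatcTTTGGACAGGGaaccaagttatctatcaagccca
Traj31, chr14:54187895-54187951, plus strand: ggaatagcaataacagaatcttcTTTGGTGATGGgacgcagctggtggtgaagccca
Traj37, chr14:54181518-54181577, plus strand: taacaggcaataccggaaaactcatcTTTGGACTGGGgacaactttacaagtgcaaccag
Traj27, chr14:54192303-54192361, plus strand: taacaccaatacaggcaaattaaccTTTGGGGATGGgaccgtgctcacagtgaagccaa
Traj15, chr14:54204422-54204481, plus strand: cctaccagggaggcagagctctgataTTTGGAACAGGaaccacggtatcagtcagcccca
Traj18, chr14:54200777-54200842, plus strand: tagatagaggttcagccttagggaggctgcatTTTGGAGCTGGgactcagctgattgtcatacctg
Traj33, chr14:54185358-54185414, plus strand: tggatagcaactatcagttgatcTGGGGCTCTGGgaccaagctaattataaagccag
Traj50, chr14:54167590-54167652, plus strand: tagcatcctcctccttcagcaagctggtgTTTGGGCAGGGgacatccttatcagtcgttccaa
In 7 of these segments the capitals begin with the Phe codon TTT, and Traj33 begins with the Trp codon TGG. The motif stood in frame in 42 of the 51 segments (82.4%), and on the reverse strand in none. In the first 60 bases of 32846 RefSeq promoter windows of GRCm38.p6, read with the same rule, it stood in frame in 0.715% and on the reverse strand, in any frame, in 2.07%.

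Reads fell on 51 of the 52 genes, and most segments with few or no reads lacked this motif. Among the segments that held it in frame, reads ran from 2 for Traj25 to 1247 for Traj27. Over the 26 libraries, 43 segments had more than 100 reads each, and 41 of these 43 held the motif in frame. The remaining 8 segments had at most 32 reads each, and 1 of these 8, Traj25 with 2 reads, held it. Traj46 had none at all in any library. The division at 32 reads was chosen after the values were seen. The next segments above it were Traj35 with 103 reads, Traj38 with 107 and Traj5 with 133. The near-silent segments other than Traj46 are shown for their lack of the capitals, which only Traj25 carries.
Traj59, chr14:54156133-54156196, plus strand: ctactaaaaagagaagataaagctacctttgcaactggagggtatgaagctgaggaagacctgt
Traj41, chr14:54176271-54176325, plus strand: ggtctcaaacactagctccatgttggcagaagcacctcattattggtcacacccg
Traj29, chr14:54190946-54191005, plus strand: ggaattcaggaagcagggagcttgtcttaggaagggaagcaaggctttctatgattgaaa
Traj25, chr14:54194815-54194871, plus strand: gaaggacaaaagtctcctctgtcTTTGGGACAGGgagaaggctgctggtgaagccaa
Traj20, chr14:54199441-54199498, plus strand: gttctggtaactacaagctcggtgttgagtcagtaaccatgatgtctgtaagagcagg
Traj19, chr14:54200386-54200446, plus strand: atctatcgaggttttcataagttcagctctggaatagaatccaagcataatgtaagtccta
Traj3, chr14:54217292-54217357, plus strand: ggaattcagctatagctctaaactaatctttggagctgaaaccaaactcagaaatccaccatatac
Traj41 had 32 reads over the 26 libraries, Traj19 also 32, Traj3 17, Traj20 3, and Traj59, Traj29 and Traj25 each 2. With Traj46, the near-silent segments are scattered over the whole locus, with 3 in its distal, 2 in its middle and 3 in its proximal part. Traj59 is the outermost segment, and Traj20 and Traj19 are neighbours. Each of the others lies between segments with more than 100 reads. In the 12 CD4+ libraries Traj59, Traj46, Traj29, Traj20 and Traj3 had no read, which allows a share of up to 0.246% to 0.526% of the joining-segment reads of a library (3 reads of its total, counting error only).

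The segments Traj44 and Traj7 had 306 and 247 reads without any of these 3 forms of the motif in frame. A form that starts with a Leu codon, TTGGGNNNNGG, was searched after this was seen, and stood in the same frame in both of them and in the unread Traj46. Capitals mark it here.
Traj44, chr14:54173690-54173750, plus strand: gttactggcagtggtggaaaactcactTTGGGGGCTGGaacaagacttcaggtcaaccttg
Traj7, chr14:54211470-54211528, plus strand: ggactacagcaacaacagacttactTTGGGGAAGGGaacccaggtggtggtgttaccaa
Traj46, chr14:54172336-54172398, plus strand: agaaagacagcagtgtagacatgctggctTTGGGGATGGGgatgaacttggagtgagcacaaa
It stood in frame in 0.225% of the same promoter windows. With it, all 43 segments with more than 100 reads held 1 of the 4 forms, as did Traj25 and Traj46 among the 8 others.

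**Figure D1:**
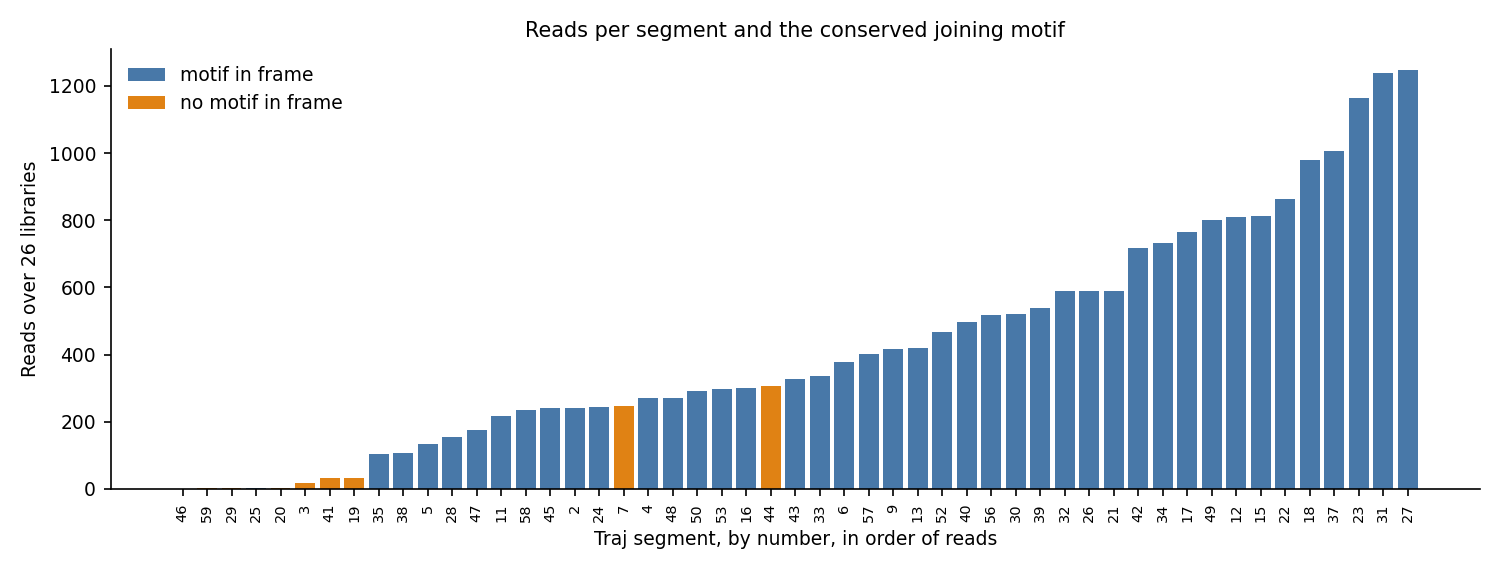
Reads of each joining segment summed over the 26 libraries (vertical axis), in order of reads (horizontal axis, segment number). Blue bars hold the Phe or Trp form of the motif in frame and orange bars do not: 7 of the 8 lowest segments lack it, and of the others only Traj7 and Traj44.

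The level of a segment rested on few reads. A CD4+ library had 570 to 1220 joining-segment reads and 9495 to 18083 Trac reads, out of 17159084 to 26643133 total gene reads. A library of the CD44 sorts had 556 to 2027 joining-segment reads and 11020 to 42748 Trac reads, out of 9624785 to 14765572. All 52 genes have a deposited exon length of 0, no exon read was counted on them, and their reads appear as intron reads within the total gene reads. How a read that crosses from a variable segment through a joining segment into Trac was assigned is not given in the sources used here. No member overlaps another gene of the tables, and no member read matched several places. Intron reads of all genes made up 3.97% to 4.61% of a conventional and 3.33% to 4.08% of an elemental library. They made up 9.39% to 27.0% of a CD44- and 20.6% to 29.0% of a CD44+ library. The part of these differences in the levels of the members was not tested. The tables do not tell spliced from unspliced RNA on these genes, and the part of unspliced RNA in the segment shares was not tested. The 8 near-silent segments together took 0.294% of joining-segment reads in the conventional and 0.240% in the elemental group, and 0.393% in the CD44- and 0.764% in the CD44+ group (means of library shares).

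Segment use was uneven and peaked in the middle of the locus. If the 43 segments with more than 100 reads were used alike, each would take 2.33% of the reads. In the conventional group the 6 leading segments (Traj31, Traj23, Traj37, Traj27, Traj17 and Traj12) took 30.8% together, and in the elemental group the 6 leading ones (Traj23, Traj31, Traj37, Traj27, Traj15 and Traj49) took 31.3%. The segments are 55 to 66 bases long, and the same 6 led in each of these groups per base of length. The middle 17 segments, Traj39 to Traj22, took 43.8% ± 3.16 of the reads in the conventional and 45.6% ± 2.96 in the elemental group (SD, n = 6 each). The distal 17, Traj59 to Traj40, took 27.4% ± 1.83 and 26.6% ± 3.44. The proximal 17, Traj21 to Traj2, took 28.7% ± 2.19 and 27.8% ± 2.69. Each of these shares overlapped between the diets.

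**Figure D2:**
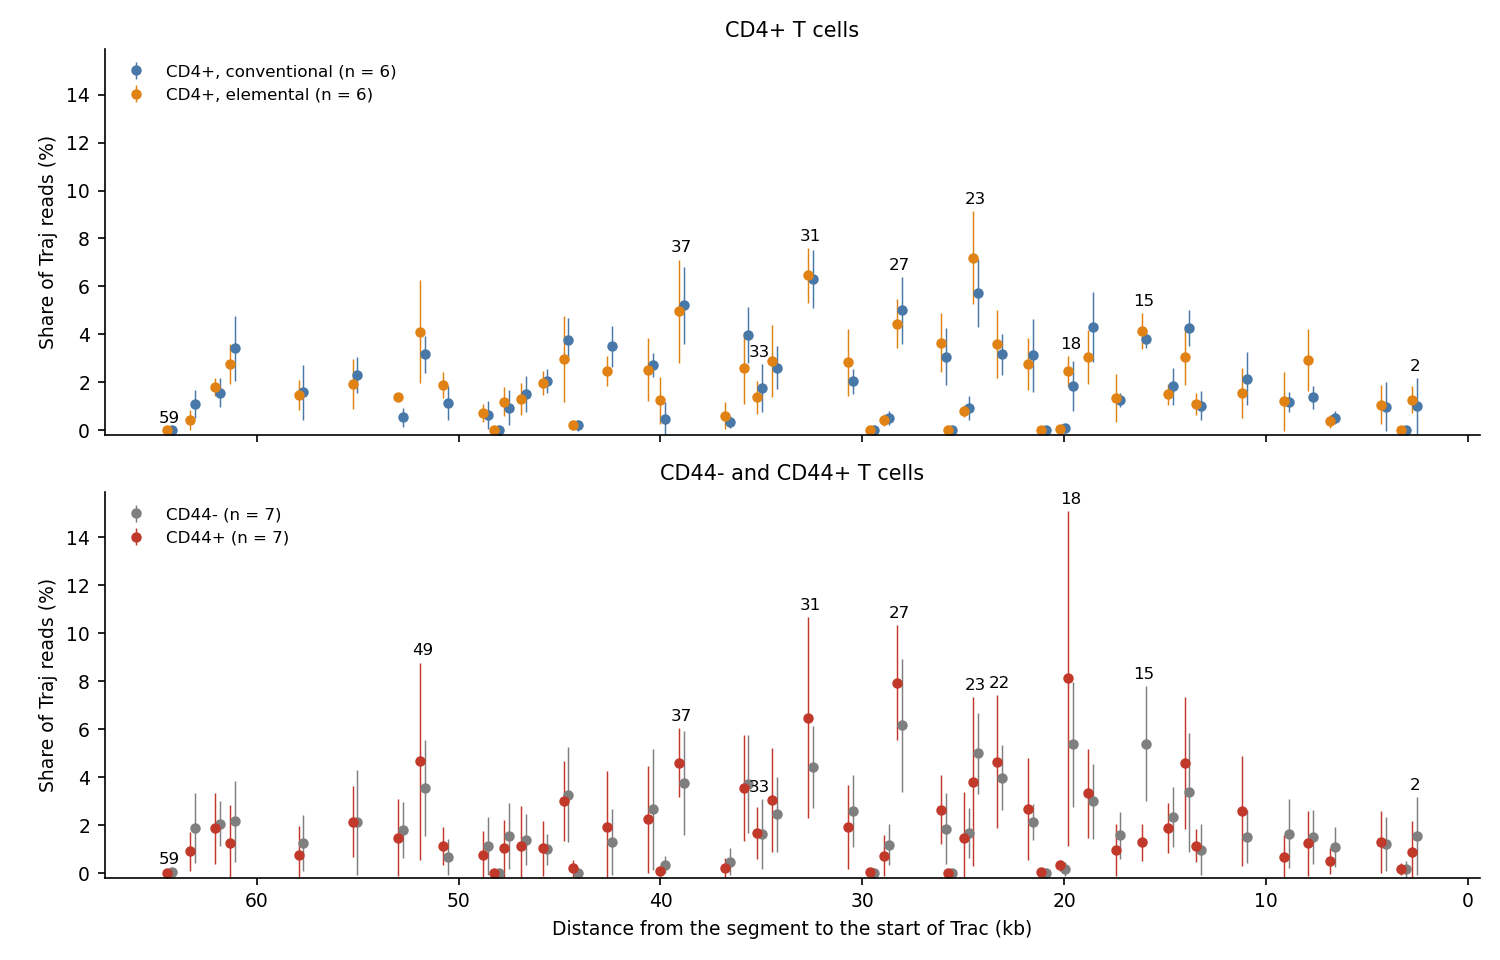
Share of all joining-segment reads (vertical axis, %) of each of the 51 segments against its distance from the start of Trac (horizontal axis, kb), as mean and SD over libraries. Points of a pair of groups are set slightly apart to the left and right. The 3 highest mean shares of every group lie between Traj37 and Traj15.

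Among the CD4+ libraries, the constant gene and the summed joining segments were lower on average on the elemental diet, with overlapping groups, and neither Trac nor any segment passed the test. Trac, the part of the alpha chain that all alpha-beta T cells share, had 577 to 759 CPM (reads per 1000000 total gene reads) in the conventional libraries, with a median of 689.8. On the elemental diet it had 492 to 657, with a median of 575.3. The groups overlapped, although 6 of 6 elemental libraries were below the conventional mean. The means were 677 ± 61.6 and 575 ± 56.2 CPM (SD, n = 6 each), and the fitted log2 fold change was -0.15 ± 0.06 (SE), with an adjusted p of 0.102 by edgeR's quasi-likelihood test (Benjamini-Hochberg). DESeq2 gave -0.15 with an adjusted p of 0.0273, while the edgeR alternatives gave adjusted p-values from 0.0505 to 0.171. In bulk samples, fewer cells that carry a chain and less RNA per cell cannot be told apart.

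The 51 segments summed to 33.1 to 47.8 CPM in the conventional libraries (median 44.6) and to 29.5 to 41.0 CPM in the elemental libraries (median 37.1). The means were 42.8 ± 5.25 and 35.8 ± 4.58 CPM, and again 6 of 6 elemental libraries were below the conventional mean within overlapping ranges. With TMM-scaled library sizes the difference was -4.71 in place of -7.02 CPM. Set against Trac, the groups differed by less than their spread: there were 63.2 ± 3.32 joining-segment reads per 1000 Trac reads on the conventional and 62.3 ± 5.16 on the elemental diet. Of the 52 genes, 32 passed the filter on low counts, and 0 of these 32 were called at an adjusted p under 0.05 by edgeR, against 18.0% of the 13088 genes tested. At an unadjusted p under 0.05 there was 1, Trac, against 33.7% of all genes tested, and DESeq2 called 1, also Trac, among 3024 of the 13088 genes. The 20 genes not tested had at most 31 reads in any of the 12 libraries. Among the 31 segments tested, 11 had a positive and 20 a negative log2 fold change, with a median standard error of 0.41. The median over the 32 members was -0.24, against -0.01 over all genes tested. No member had CPM values that did not overlap between the diets, against 4.53% of genes higher and 2.64% lower on the elemental diet.

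**Figure D3:**
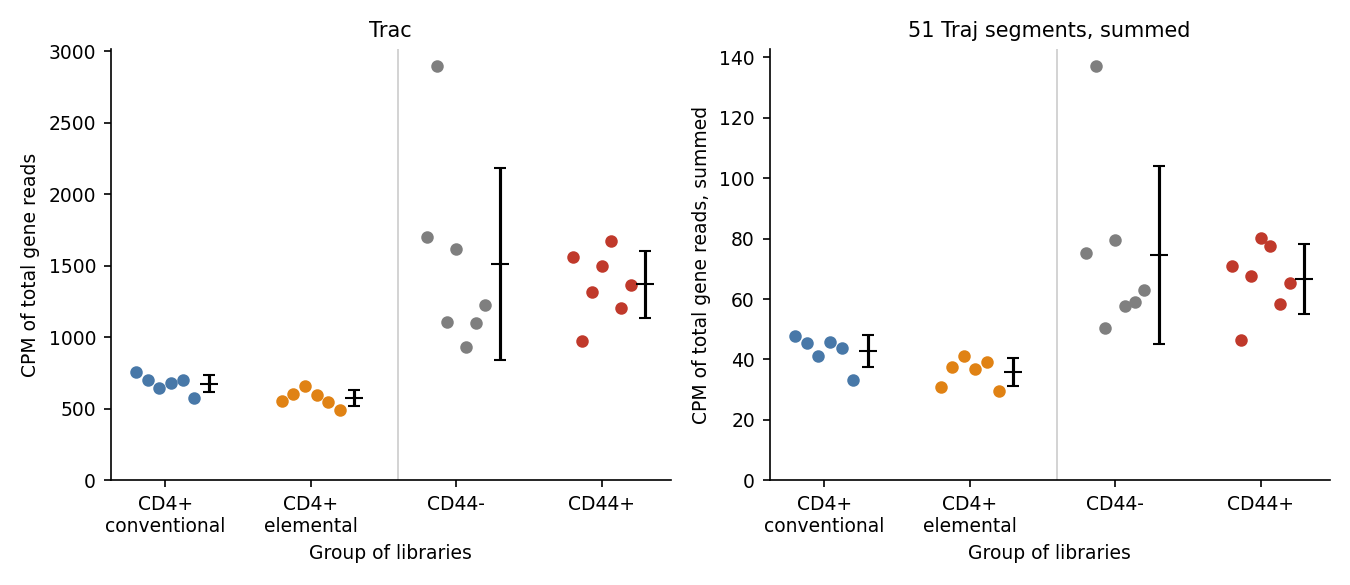
CPM of Trac (left) and of the 51 joining segments summed (right) in each library (points), with mean and SD of each group (black bars). The grey line separates the pairs of groups made with different kits. Within each pair the groups overlap, and 1 CD44- library stands at 2895 CPM for Trac and 137 CPM for the segments.

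Segment by segment, the mean shares ran in a like order on both diets. Over the 51 segments the mean shares of the 2 groups had a Pearson correlation of 0.93 and a Spearman correlation of 0.94, which is a description of segments that share their libraries. Traj23 took 5.73% ± 1.41 of the joining-segment reads with the conventional and 7.19% ± 1.94 with the elemental diet. Traj31 took 6.31% ± 1.19 and 6.46% ± 1.14. Traj37 took 5.20% ± 1.62 and 4.96% ± 2.16, and Traj27 5.01% ± 1.39 and 4.43% ± 1.02. All of these segments overlapped between the diets. Traj15 took 3.81% ± 0.371 and 4.14% ± 0.747, and Traj17 4.31% ± 1.48 and 3.04% ± 1.13, again with overlap. The smallest nonzero mean shares over both diets were those of Traj25 (0.00864%), Traj19 (0.0578%) and Traj41 (0.200%), all near-silent segments. Next above them, Traj5 took 0.519% and 0.364%, Traj28 0.520% and 0.430%, and Traj35 0.349% and 0.609%. At the ends of the locus, Traj59 had no read and Traj2, next to Trac, took 1.01% ± 1.16 and 1.28% ± 0.573.

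Traj50, among the distal 17 segments, was the only 1 of the 51 whose shares did not overlap between the diets. It had 12, 6, 3, 5, 6 and 0 reads in conventional replicates 1 to 6, and 9, 10, 10, 11, 11 and 9 reads in elemental replicates 1 to 6. Its shares ran from 0% to 1.18% (mean 0.532% ± 0.385) and from 1.27% to 1.58% (mean 1.40% ± 0.134). The counts are small, and as CPM the highest conventional library (0.564) lay within the elemental range of 0.426 to 0.609. Traj50 did not pass the filter on low counts. With that filter removed it had a log2 fold change of 1.13 and an adjusted p of 0.307 by edgeR.

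Position and evenness of use overlapped between the diets. The reads lay on average 32.1 ± 0.836 kb before Trac with the conventional and 31.8 ± 1.05 kb with the elemental diet. The effective number of segments, that is the number of equally used segments with the same chance that 2 reads fall on 1 segment, was 28.5 ± 1.40 and 28.2 ± 2.46. The leading segment of a library was Traj27, Traj23, Traj37 or Traj31 in the conventional and Traj37, Traj31, Traj42 or Traj23 in the elemental libraries, and it took 6.56% to 8.45% and 5.51% to 9.47% of the reads.

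Genes of the same receptor and of its assembly were read beside these values. Of the 6 genes of the receptor complex (Trbc1, Trbc2, Cd3d, Cd3e, Cd3g and Cd247), none was called higher and 1 was lower with the elemental diet. That gene was Cd3e, a signalling chain of the complex, at 211 ± 24.6 CPM on the conventional and 167 ± 21.6 on the elemental diet (log2 fold change -0.25 ± 0.08, adjusted p 0.0474 by edgeR). Trbc1, a constant gene of the beta chain, had a log2 fold change of -0.01 ± 0.08. Of 11 genes of receptor gene assembly, 9 were tested and 1 was called. Dntt, the polymerase that adds bases at the joins, had 4.19 ± 1.29 CPM with the conventional and 9.50 ± 2.02 with the elemental diet, a rise of 1.28 ± 0.21 on the log2 scale (adjusted p 0.00110 by edgeR). Of 11 factors known to bind the alpha chain enhancer or promoters, 0 were called higher and 3 lower, Tcf7 (-0.64 ± 0.15), Ets1 (-0.43 ± 0.10) and Tcf3 (-0.31 ± 0.09, log2 fold change and SE). Over all genes 18.0% were called in either direction, and 7.96% were called lower.

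Markers of other cell types moved with the diet as well. All 6 myeloid markers were called higher on the elemental diet, where 1315 of the 13088 genes tested were, with summed levels of 103 to 169 CPM in the conventional and 197 to 643 in the elemental libraries. Epithelial markers were called higher in 3 of 6 (54.3 to 448 and 261 to 644 CPM). Plasma cell markers were called lower in 2 of 4 (1022 to 1993 and 377 to 803 CPM) and B cell markers in 2 of 6 (340 to 627 and 159 to 358 CPM). Of the 2 CD8 T cell markers Cd8b1 was called higher (0.53 ± 0.16, adjusted p 0.0349 by edgeR) and Cd8a was not called (-0.65 ± 0.28), with sums of 36.0 to 75.1 and 30.0 to 59.9 CPM. Of the gamma-delta T cell markers 0 of 4 tested were called (34.1 to 64.4 and 23.2 to 49.6 CPM). No marker of these 6 lists was at 0 in all libraries of a diet. Cd4 itself was lower on the elemental diet, at 361 ± 109 and 226 ± 51.6 CPM (log2 fold change -0.58 ± 0.17, adjusted p 0.0283 by edgeR). Cd44 was lower as well, at 167 ± 25.6 and 107 ± 22.2 CPM (-0.56 ± 0.10, adjusted p 0.00177 by edgeR). The part of these differences in the levels of Trac and the segments was not tested.

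Between CD44- and CD44+ libraries the level of the locus did not differ beyond the spread between libraries. Trac had 931 to 2895 CPM in the CD44- libraries (median 1227) and 974 to 1675 CPM in the CD44+ libraries (median 1368). The groups overlapped, with means of 1512 ± 672 and 1372 ± 235 CPM (SD, n = 7 each), a log2 fold change of -0.28 ± 0.25 and an adjusted p of 0.705 by edgeR. CD44- replicate 2, with 2895 CPM, was far above the others. It also had the lowest intron share, 9.39%. Without it the log2 fold change of Trac was -0.02 ± 0.18 (adjusted p 0.988 by edgeR). The segments summed to 74.6 ± 29.5 CPM in CD44- and 66.7 ± 11.6 in CD44+ libraries, and without CD44- replicate 2 the difference changed sign, from -7.88 to 2.57 CPM. With TMM-scaled library sizes and all libraries it was -14.8 CPM. Per 1000 Trac reads there were 50.5 ± 6.01 and 48.7 ± 2.86 joining-segment reads.

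Of the 52 genes, 27 passed the filter on low counts, and 0 of these 27 were called by edgeR, against 0.920% of the 10976 genes tested. The 25 others had at most 56 reads in any of the 14 libraries. At an unadjusted p under 0.05 there was 1, Traj15, against 13.3% of all genes tested, and DESeq2 called 1, also Traj15, among 674 of the 10976 genes. Of the 26 segments tested, 7 had a positive and 19 a negative log2 fold change, with a median standard error of 0.68. The median over the 27 members was -0.29, against 0.005 over all genes tested. No member had CPM values that did not overlap, against 0.747% of genes higher and 0.337% lower in CD44+ libraries.

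Traj15, among the proximal 17 segments, had the largest fitted difference of the tested members. It had 20, 125, 20, 45, 37, 60 and 49 reads in CD44- replicates 1, 2, 4, 5, 6, 7 and 8, and 1, 10, 14, 3, 18, 7 and 11 reads in the CD44+ replicates of the same numbers. Every CD44- library had more reads than any CD44+ library. Its share of joining-segment reads was 2.13% to 9.16% in CD44- and 0.139% to 2.10% in CD44+ libraries, with means of 5.39% ± 2.39 and 1.29% ± 0.776. It was the only 1 of the 51 segments whose shares did not overlap. As CPM the groups met, with a lowest CD44- value of 1.60 and a highest CD44+ value of 1.63. The log2 fold change was -2.33 ± 0.57, with an adjusted p of 0.0608 by edgeR, so that it missed the threshold. DESeq2 gave -2.30 with an adjusted p of 7.53e-04. The 18 edgeR alternatives gave adjusted p-values from 0.0637 to 0.163, and in 0 of them was it called. In the CD4+ libraries, for which the labels name no sort by CD44, its share was 3.26% to 5.08%. With another kit and RNA input, this share is not compared with those of the CD44 sorts.

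Traj18, the segment of the invariant natural killer T cell receptor, had the largest mean share in the CD44+ group and the largest SD of share there. Its shares in CD44+ replicates 1, 2, 4, 5, 6, 7 and 8 were 10.7%, 6.30%, 6.53%, 22.6%, 4.20%, 5.27% and 1.27%. In CD44- replicates of the same numbers they were 2.66%, 2.32%, 5.22%, 8.76%, 8.80%, 4.89% and 4.91%. The groups overlapped, with means of 8.13% ± 6.99 and 5.36% ± 2.59, a log2 fold change of 0.45 ± 0.60 and an adjusted p of 0.836 by edgeR. Replicate 5 of the CD44+ group had 196 Traj18 reads of 867 (Wilson 95% interval 19.9% to 25.5%), and without it the log2 fold change was -0.21. In the CD4+ libraries Traj18 took 0.614% to 3.32% on the conventional and 1.75% to 3.33% on the elemental diet. Kit and RNA input differed between the pairs, so these shares are not compared with those of the CD44 sorts. The intervals cover counting error only, since reads without molecular identifiers are not independent molecules.

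Trav11d is a variable segment of the group that invariant receptors join to Traj18. It had 71, 96, 267, 98, 206, 0 and 3 reads in CD44+ replicates 1, 2, 4, 5, 6, 7 and 8, where Traj18 had 77, 37, 49, 196, 36, 33 and 8. Replicate 7 thus had 33 Traj18 reads and no Trav11d read, and replicate 4 had the most Trav11d reads and 49 of Traj18. Trav11d had 4.43 ± 3.75 CPM in CD44- and 9.54 ± 8.97 in CD44+ libraries (adjusted p 0.817 by edgeR). Of the other markers of these cells, Klrb1c, a surface receptor of natural killer cells, had 64.9 ± 59.6 and 165 ± 83.2 CPM (adjusted p 0.313 by edgeR). Zbtb16, their defining transcription factor, was near 0 in both groups, at 0.559 ± 0.402 and 0.760 ± 0.324 CPM. On the elemental diet Klrb1c fell by 0.95 ± 0.13 on the log2 scale (adjusted p 2.70e-04 by edgeR), while Zbtb16 had a log2 fold change of 0.04 ± 0.49 and Trav11d one of 0.50 ± 0.30. Cd160, another marker on this list of 5 genes, had one of -0.35 ± 0.17 (adjusted p 0.157 by edgeR). The remaining gene, Trav11, was near 0 in all groups and was tested in neither comparison. For the diets, 1 of the 4 genes tested was called lower and 0 higher, against 7.96% of all genes lower. For CD44, 0 of 3 tested were called.

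Traj33, the segment of the mucosal-associated invariant T cell receptor, had a mean share below the equal share of 2.33% in all groups. Single conventional, CD44- and CD44+ libraries lay above that share. Its share was 0.738% to 3.12% on the conventional and 0.526% to 2.15% on the elemental diet. It was 0.298% to 3.81% in CD44- and 0.133% to 3.07% in CD44+ libraries, so both pairs overlapped. Trav1, its variable partner in that receptor, had 22 to 106 reads in each CD4+ library and no read in 7 of the 14 CD44 libraries. The 2 sets of libraries also differ in kit, RNA input and read numbers.

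**Figure D4:**
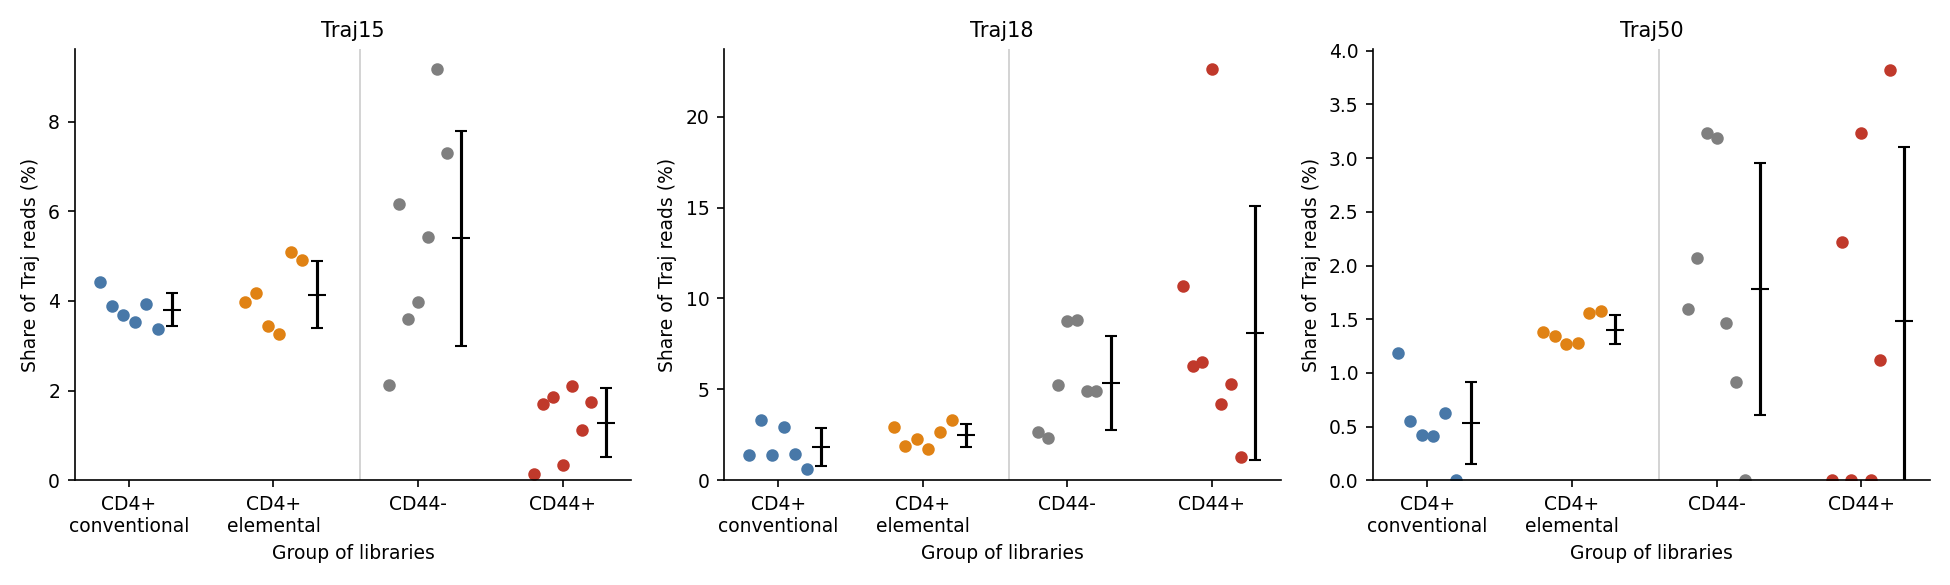
Share of joining-segment reads (vertical axes, %) of Traj15, Traj18 and Traj50 in each library (points), with mean and SD of each group (black bars, cut off at 0). Traj15 does not overlap between CD44- and CD44+ libraries, Traj18 reaches 22.6% in 1 CD44+ library, and Traj50 does not overlap between the CD4+ diets.

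The other leading segments overlapped between CD44- and CD44+ libraries. Traj27 took 6.16% ± 2.78 and 7.94% ± 2.39, Traj31 4.43% ± 1.71 and 6.48% ± 4.19, and Traj23 5.00% ± 1.69 and 3.81% ± 3.52. Traj22 took 3.98% ± 1.34 and 4.64% ± 2.77, and Traj37 3.76% ± 2.15 and 4.61% ± 1.44. Single libraries of either group lacked 1 of these segments. Traj37 had no read in CD44- replicate 7. Traj31 had no read in CD44+ replicate 1 and 11.8% in replicate 7, and Traj23 had none in replicate 2 and 8.48% in replicate 1. At the ends of the locus, Traj59 had 2 reads in all, both in 1 CD44- library, and Traj2 took 1.55% ± 1.64 in CD44- and 0.867% ± 1.30 in CD44+ libraries. Over the 51 segments the mean shares of the 2 groups had a Pearson correlation of 0.87 and a Spearman correlation of 0.89.

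Fewer segments carried the reads of CD44+ libraries. The effective number of segments was 20.2 to 31.3 in CD44- libraries (median 26.1) and 11.5 to 24.7 in CD44+ libraries (median 21.8). The ranges overlapped, and 7 of 7 CD44+ libraries were below the CD44- mean. The means were 26.1 ± 4.17 and 20.0 ± 5.01, and with each library left out in turn the difference lay between -7.05 and -4.65. The leading segment took 8.32% ± 1.69 in CD44- and 11.99% ± 4.89 in CD44+ libraries, and reads fell on 39.7 ± 4.99 and 35.4 ± 5.65 segments. The leading segment was Traj18 in 2 of the 7 CD44+ libraries and Traj12, Traj27, Traj23, Traj49 and Traj31 in 1 each. Because these are scores over the set, no p is given. Joining-segment reads per library were 556 to 2027 (median 682) and 587 to 867 (median 719). The estimate of the effective number allows for these totals only as far as reads are independent molecules. Reads without molecular identifiers are not, and the part of molecule sampling in this difference was not tested.

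**Figure D5:**
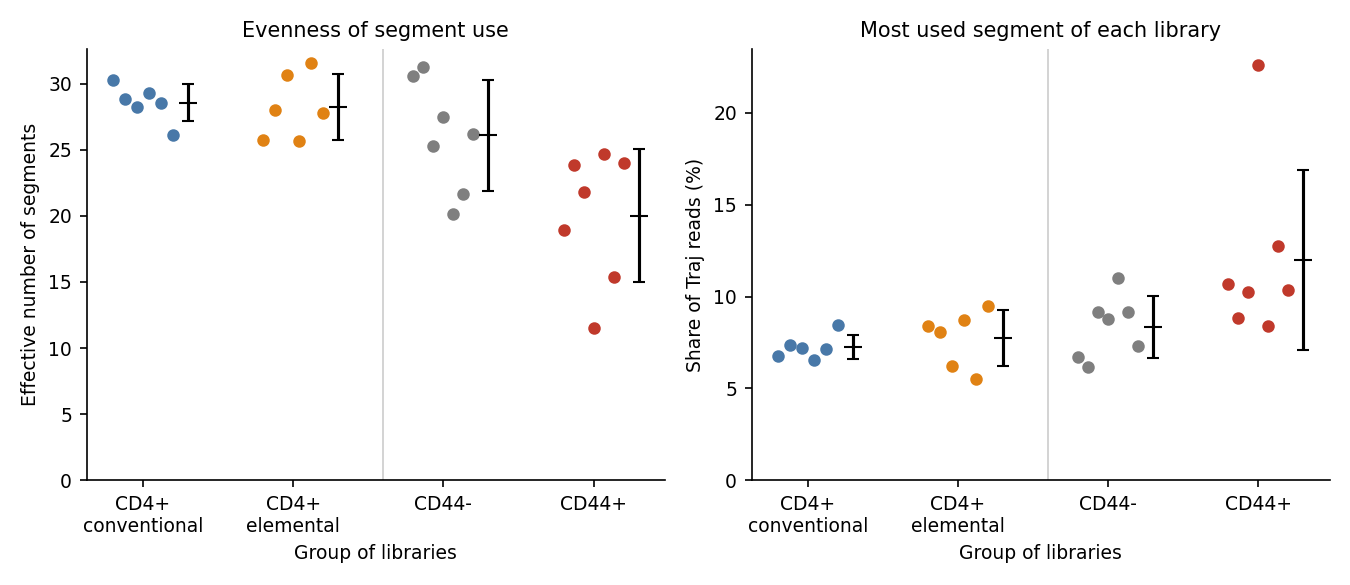
Effective number of joining segments (left) and share of joining-segment reads taken by the leading segment (right, %) in each library (points), with mean and SD of each group (black bars). CD44+ libraries lie at 11.5 to 24.7 effective segments and CD44- libraries at 20.2 to 31.3.

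Along the locus the CD44- and CD44+ libraries overlapped in all 3 parts. The middle 17 segments took 41.9% ± 5.88 of the reads in CD44- and 45.1% ± 3.22 in CD44+ libraries, the distal 17 took 25.1% ± 5.79 and 23.3% ± 4.82, and the proximal 17 took 33.0% ± 5.51 and 31.7% ± 4.53. The mean distance from Trac was 31.0 ± 1.99 kb and 30.8 ± 1.89 kb.

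Replicates of 1 group spread less on the segments than on typical genes in the same range of reads. For members with 10 to 50 mean reads, the median variance-to-mean ratio of reads over libraries was 2.70 in the conventional, 3.18 in the elemental, 10.4 in the CD44- and 12.9 in the CD44+ group. For other protein-coding genes with 10 to 50 mean reads it was 5.83, 5.73, 30.8 and 36.5. The reads were not matched within this range. Members and other genes had medians of 19.5 and 23.7 reads in CD44-, and of 19.3 and 24.8 in CD44+. In the conventional group the medians were 22.6 and 22.3, and in the elemental group 20.1 and 22.4. The ratios were not tested.

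The label marker and related genes were read beside the CD44 comparison. Cd44 had 86.9 ± 32.2 and 180 ± 90.0 CPM, with an adjusted p of 0.178 by edgeR. Cd4 had 202 ± 183 CPM in CD44- and 84.6 ± 24.0 in CD44+ libraries (log2 fold change -1.42 ± 0.43, adjusted p 0.133 by edgeR). Gamma-delta T cell markers summed to 0.0845 to 85.2 and 34.9 to 111 CPM, with 0 of 3 tested called. CD8 T cell markers summed to 20.7 to 83.9 and 41.6 to 116 CPM (0 of 2 called). Myeloid markers (62.0 to 336 and 104 to 390 CPM) were called in 0 of 6, and epithelial markers in 0 of 3 tested. No gene of the receptor complex was called among 6 tested, and none of receptor gene assembly among 7. Rag1 and Rag2, the recombinase that makes the joins, had no read in any CD44+ library and at most 0.0845 and 0.0677 CPM in a CD44- library. Of the 11 enhancer and promoter factors, 0 were called higher and 1 lower, Lef1, a factor that binds the alpha chain enhancer, at 722 ± 230 and 215 ± 84.1 CPM (log2 fold change -1.83 ± 0.30, adjusted p 0.0111 by edgeR). Of the 4 plasma cell markers 2 were called higher in CD44+ libraries, Jchain and Mzb1, and the list summed to 311 to 2005 CPM in CD44- and 2778 to 6319 in CD44+ libraries. B cell markers were not called (0 of 6, 176 to 835 and 446 to 1529 CPM), and none of these 10 genes was at 0 throughout a group. Over all genes, 0.446% were called higher and 0.474% lower. The part of these differences in segment use was not tested.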

How the data were processed

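The data are RNA-seq libraries of T cells sorted from mouse Peyer's patches. Per library, the authors deposited whole read counts of every gene, and the total gene reads (exon plus intron reads) were used, because exon counts are 0 for all members. Per the submitters' processing notes, reads were placed on GRCm38. Aligner and counter were not given in the sources used here. Gene coordinates in the tables and in GENCODE M21 were the same for 51 of 51 segments.

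CPM is reads per 1000000 total gene reads. The main test was that of edgeR 4.0.16 in R 4.3.3 (two-sided quasi-likelihood, robust, filterByExpr by group, TMM factors, Benjamini-Hochberg over all genes tested, called under 0.05), each comparison on its own groups. It was tried on simulated counts that spread less between libraries than typical genes of these data. That trial therefore does not show how the test performs here. DESeq2 1.42.0 was an alternative, with no TMM scaling, no filter, unique reads, a replicate block and each library left out. Python 3.11.15, pandas 2.3.3 and matplotlib 3.10.9 made the other values. The sum of squared shares was estimated from read pairs, which is without bias only for independent reads.

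Segments named are Trac, the 6 largest and 6 smallest nonzero mean shares per pair, those without overlap or called, the outermost ones, Traj18 and Traj33. Members and lists were chosen with earlier results of these data known, and Cd44 was added after the files were seen.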

Additional observations from a re-analysis of the deposited data

Results flagged for a closer look

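Within groups, the lowest and the highest library were set against the rest for 76 measures and groups, and 4 values stood apart; chance alone gives about 1 in 20. CD44- replicate 2 had 137 CPM of summed joining segments, with the other CD44- libraries at 50.3 to 79.5, and 2895 CPM of Trac, with the others at 931 to 1702. The leading segment of CD44+ replicate 5, Traj18, took 22.6% of joining-segment reads, with the leading segments of the others at 8.40% to 12.8%. Traj37 took 8.45% in conventional replicate 6, with the other conventional libraries at 4.25% to 5.17%. The cause of these values was not tested.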

How the results depend on the processing

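DESeq2 called 1 member in each comparison, Trac for the diets (log2 fold change -0.15) and Traj15 for CD44 (-2.30), where edgeR called 0. DESeq2 called 674 genes between CD44+ and CD44- libraries in place of 101; for the diets it called 3024 in place of 2357. Over all genes, leaving out 1 library gave 1584 to 3871 calls for the diets, with the highest count without conventional replicate 6, and 49 to 132 for CD44, where leaving out CD44+ replicate 2, 5, 6 or 7 or CD44- replicate 1, 2 or 4 each gave 67 or fewer. Called members stayed at 0 in every edgeR alternative. Traj18 in the CD44 comparison turned to -0.21 without CD44+ replicate 5, and reached 0.71 without CD44- replicate 5. No TMM scaling moved the median log2 fold change of all genes from 0.005 to 0.117 for CD44, and that of the members to -0.14. With the replicate number as a block, 44 genes were called for CD44 and 2182 for the diets, and 0 members in either. Same-numbered libraries had correlations of -0.12 to 0.13 (diets) and -0.02 to 0.09 (CD44), and 1 of 6 and 2 of 7 numbers matched best with their own. When single libraries were left out, the difference in mean distance from Trac changed sign in 1 of 12 cases for the diets and 4 of 14 for CD44, that in effective segments in 3 of 12 for the diets and 0 of 14 for CD44, and that in summed CPM in 0 of 12 and 1 of 14. The causes were not tested. At the read numbers given, the median standard error of a segment was 0.41 (diets) and 0.68 (CD44) on the log2 scale. Differences of that size were not detectable, and neither were some several times larger. For CD44, Traj15 at -2.33 ± 0.57 was still not called (adjusted p 0.0608 by edgeR).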
